A study of Mus musculus with 4 samples.

Results

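Actin filaments shape the growth cones and dendritic spines of neurons, and 9 genes that control them were examined for exon inclusion in brain that lacks the splicing regulator PTBP2: *Dbn1*, *Actr2*, *Mical3*, *Sorbs2*, *Enah*, *Evl*, *Cttn*, *Ctnnd1* and *Abi1*. The members were all exon trios of these genes. A trio is a middle exon with the exon before it and the exon after it, and it was assigned to a gene when the length of the middle exon and of both introns matched a GENCODE transcript on the same chromosome and strand. This gave 232 of the 228333 trios in the tables, of which 28 carry the cassette label of the trio database, meaning that the middle exon can be skipped. *Sorbs2* holds 61 of them, *Mical3* 37, *Ctnnd1* 28, *Enah* 23, *Evl* 20, *Abi1* 20, *Cttn* 18, *Dbn1* 17 and *Actr2* 8. In *Ctnnd1*, 18 trios also match a readthrough transcript that the annotation lists as another gene, so reads of both cannot be told apart there.

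Spine growth depends on branched actin networks, which the Arp2/3 complex nucleates when it is switched on by the WAVE complex, and on proteins that lengthen, bundle or dismantle filaments. *Actr2* encodes the Arp2 subunit of the first complex and *Abi1* a subunit of the second. Cortactin (*Cttn*) holds branches in place, drebrin (*Dbn1*) binds along filaments in spines, and Mena (*Enah*) and *Evl* are Ena/VASP proteins that speed filament growth at the leading edge. *Mical3* belongs to the MICAL family of oxidizing enzymes that act on the cytoskeleton, *Sorbs2* encodes the adaptor ArgBP2, and *Ctnnd1* encodes p120-catenin, which stabilizes cadherins at cell contacts.

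The RNA came from mice of a Mixed C56Bl/6:129S2 background. The NesKO group carried the floxed *Ptbp2* allele, in which loxP sites flank exon 4, and Cre driven by the *Nestin* promoter in neural progenitors, and whole brains of 2 embryos at E18 gave 1 library, as did 2 wild-type littermates. The EmxKO group carried the same allele with *Emx1*-driven Cre, which is active in the lineage of projection neurons of the dorsal forebrain but not in all cortical cells, and the cortex of 1 animal at P1 and of 1 littermate labelled wild type gave 1 library each. The E18 libraries were not described as strand specific and the P1 libraries were, so stage, tissue, Cre line and library protocol cannot be told apart. With 1 library per group there is no replicate error, and every p-value below compares the reads of a pair of libraries and not the genotypes.

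Skipping of *Ptbp2* exon 4 was measured first, because it checks the labels. It was 100% of junction reads in the NesKO, 0.225% in the E18 wild type, 82.6% in the EmxKO and 31.5% in the P1 library labelled wild type (95% Wilson interval, 29.5 to 33.7%). The P1 control therefore holds skipped *Ptbp2* mRNA, and it is called the library labelled wild type throughout. Every P1 direction below is drawn against it, and no comparison at P1 can be made without it. Distinct junction reads numbered 48239933, 50074568, 82960442 and 83241630 in NesKO and wild type at E18 and in EmxKO and labelled wild type at P1, in this order. The median member trio had 511, 636, 941 and 1044 reads over its 3 junctions. None of 7 neuron markers was at 0 in any library. Of the 4 hindbrain markers with trios, none was at 0 at E18 and all 4 were at 0 in the P1 library labelled wild type, with summed levels of 8.85 and 18.2 RPM (junction reads per 1000000 junction reads of the library) at E18 against 0.0362 and 0 at P1. Microglial markers summed to 88.2 and 63.8 RPM in the NesKO and its wild type, and to 50.1 and 33.4 in the EmxKO and its control. Most of each sum was *Csf1r*, at 72.7 against 52.8 and 44.6 against 29.2. *Aif1* and *C1qa* were also higher in both knockout libraries, whereas *Ptprc* was lower (1.91 against 2.38 and 0.446 against 1.24). Neuron markers summed to 2084 and 2342 RPM at E18 and to 3235 and 3305 at P1 (knockout first), but single markers, chosen here after their values were seen, differed by more. *Snap25* was at 90.5 against 193.2 RPM at E18 and 64.4 against 127.1 at P1, and *Map2* at 274.2 against 390.8 and 368.1 against 636.2. Other neuron markers went the other way at P1, with *Syn1* at 232.8 against 151.7, *Tubb3* at 1529.1 against 1215.0 and *Rbfox3* at 146.1 against 117.4. *Dcx* and *Stmn2* were lower in the EmxKO. At E18, *Syn1* (196.8 against 192.4) and *Tubb3* (967.6 against 996.5) were nearly level. The astrocyte list summed to 300.7 against 380.2 and 279.1 against 255.7, while its member *Gfap* was at 66.0 against 23.7 and 28.8 against 12.3. Its member *Slc1a3* was at 76.8 against 158.7 at E18 and 144.0 against 140.0 at P1. *Aqp4* was at 6.59 against 10.8 and 1.29 against 2.28, so this list did not move together. The progenitor and cycling list summed to 599.4 against 547.2 and 301.0 against 399.4, with *Top2a* at 34.2 against 89.6 at P1. What these differences contribute to exon inclusion was not tested.

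The exons that carry the results are shown with their sequence, since PTBP2 is known to bind CU-rich RNA in or near exons. They are the coding cassette-labelled exons of whole codons with a read difference at an adjusted p below 0.05 in any comparison. Sequences are from GENCODE transcripts on GRCm38 and are written 5' to 3' on the strand of the gene. Capitals mark TTCT, TCTT and CTCT, alone or overlapping. For the exons of 12 and 18 nt, capitals mark the exon and the flanks are 15 bases of the neighboring exons. None of the exons has a stop codon in the reading frame of its transcript.
*Dbn1* 138 nt, chr13:55476636-55476773, minus strand: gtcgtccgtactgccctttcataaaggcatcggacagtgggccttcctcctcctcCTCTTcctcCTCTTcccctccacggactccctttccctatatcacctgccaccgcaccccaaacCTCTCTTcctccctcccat
*Cttn* 111 nt, chr7:144450978-144451088, minus strand: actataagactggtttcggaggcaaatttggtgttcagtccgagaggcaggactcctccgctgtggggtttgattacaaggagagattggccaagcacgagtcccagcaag
*Enah* 12 nt, chr1:181931174-181931185, minus strand: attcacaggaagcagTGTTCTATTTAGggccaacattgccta
*Enah* 63 nt, chr1:181911597-181911659, minus strand: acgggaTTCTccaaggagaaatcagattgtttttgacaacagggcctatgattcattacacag
*Evl* 63 nt, chr12:108683348-108683410, plus strand: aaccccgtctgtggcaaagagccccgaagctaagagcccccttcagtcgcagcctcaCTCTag
*Mical3* 138 nt, chr6:120969355-120969492, minus strand: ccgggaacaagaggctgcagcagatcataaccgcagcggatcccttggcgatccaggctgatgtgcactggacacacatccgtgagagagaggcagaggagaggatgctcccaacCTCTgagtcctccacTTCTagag
*Sorbs2* 159 nt, chr8:45782802-45782960, plus strand: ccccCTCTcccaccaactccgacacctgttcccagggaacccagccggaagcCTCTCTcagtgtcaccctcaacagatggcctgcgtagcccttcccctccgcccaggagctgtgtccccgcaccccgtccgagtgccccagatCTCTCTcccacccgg
*Ctnnd1* 63 nt, chr2:84605184-84605246, minus strand: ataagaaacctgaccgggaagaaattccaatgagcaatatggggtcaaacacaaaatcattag
*Ctnnd1* 18 nt, chr2:84612532-84612549, minus strand: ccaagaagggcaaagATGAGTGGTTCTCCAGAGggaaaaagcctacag

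The *Dbn1* exon stands out in composition. Pyrimidines make up 74.6% of it. Among 1783 cassette-labelled exons within 20% of its length, itself included, the median is 48.3%, and only the *Dbn1* exon itself reaches 74.6%. CTCT occurs 4 times in it, TCTT 3 times and CTCTCT once, and CTCTCT is found in 6.00% of those exons. The *Sorbs2* exon has 64.8% pyrimidines, a share that 0.959% of 1460 exons of similar length reach, with the exon itself counted. The *Cttn* exon holds none of the motifs, and the *Mical3* exon, with 44.2% pyrimidines, holds TTCT and CTCT once each. TTCT also occurs once each in the *Enah* exon of 12 nt and the *Ctnnd1* exon of 18 nt, where capitals do not mark it. Of cassette-labelled exons of similar length, 11.8% and 8.15% hold it. TTCT, TCTT and CTCT occur in 47.4%, 42.6% and 51.4% of cassette-labelled exons of the length of the *Dbn1* and *Mical3* exons. Motif counts are on the gene's strand only and describe the exon, not the introns.

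Inclusion is given as PSI, the percent of transcripts that contain the middle exon, as SpliceTrap estimated it from exon coverage and junction reads. An exon with a PSI difference of at least 10 points is counted as differing, and as called when a Fisher's exact test of its junction reads also gave an adjusted p below 0.05 over all trios tested. Testing required 20 junction reads in both libraries. The shares of all trios below also cover events of other kinds, such as alternative splice sites, which are listed as trios too. The members hold none of these. At E18, 11 of 221 member trios differed by 10 points (4.98%), against 2.4% of all trios, and 10 of the 11 were higher in the NesKO (4.52%, against 1.37%). Of these, 4 were called (1.81%, against 0.156% of all trios), all higher in the NesKO (0.105% of all trios were), in *Dbn1*, *Sorbs2*, *Enah* and *Ctnnd1*. At P1, 12 of 225 differed (5.33%, against 1.52%), all higher in the EmxKO (0.929% of all trios were). Of these, 5 were called (2.22%, against 0.201%, with 0.153% higher), in *Dbn1*, *Mical3*, *Enah*, *Cttn* and *Ctnnd1*. All called trios carry the cassette label, and this class is called more often everywhere. Among cassette-labelled trios the calls were 4 of 27 at E18 (14.8%, against 2.02%) and 5 of 28 at P1 (17.9%, against 2.78%). The median difference was 0.5 points at E18 and 1.1 points at P1 in the cassette-labelled members, and 0 and 0.2 in all cassette-labelled trios. The member genes were chosen with earlier results of these data known. The paper already reports altered *Dbn1* and *Sorbs2* exons in knockout brain. It also reports a *Mical3* exon that loss of PTBP2 altered in P1 cortex but not at E18. The shares set against all trios, here and below, and their direction therefore cannot show that these genes differ more often than others.

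**Figure D1:**
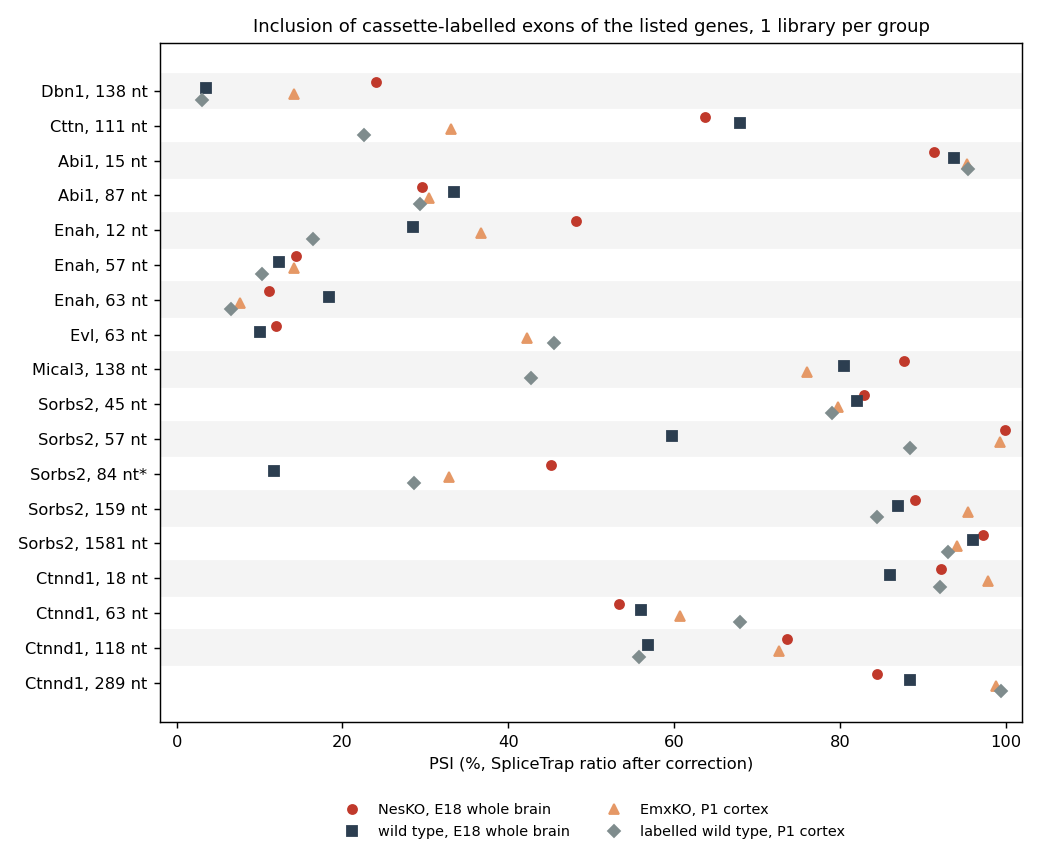
PSI in percent of the 18 cassette-labelled middle exons that lay between 5 and 95 in at least 1 library, with 1 symbol for each of the 4 libraries and no error bars, since each group has 1 library. The *Dbn1* exon sits at 24.0 and 14.2 in the knockout libraries and near 3 in both controls, while *Evl* separates by stage (10 and 12.0 against 42.3 and 45.5). The asterisk marks an exon with too few reads to be tested at E18.

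The called exon with the most reads was in *Dbn1*, whose only cassette-labelled exon (138 nt, 46 codons, exon 11 of 15, chromosome 13, 55577997 to 55578134 in mm9) was almost always skipped in the controls. Its PSI was 24.0 (NesKO) against 3.6 (wild type) at E18 and 14.2 (EmxKO) against 3.1 (labelled wild type) at P1. Both knockout libraries were above both controls. Junction-read PSI, in which the averaged inclusion reads are divided by themselves plus the skipping reads, was 21.3 (95% Wilson interval, 20.4 to 22.2) against 3.01 (2.68 to 3.39) at E18. At P1 it was 13.5 (12.9 to 14.2) against 2.56 (2.27 to 2.89). The reads differed at both stages (Fisher's exact test, adjusted p = 3.87e-313 and 2.06e-196). The rise was 20.4 points at E18 and 11.1 at P1, and the test of the difference between stages gave an adjusted p of 0.0841 (Wald). Drebrin is known in an embryonic form and in an adult neuronal form that is longer by an alternatively spliced insert. The skipping reads were 5930, 8752, 9115 and 9998. The junction counts on the 2 sides of the exon were uneven, with 982 and 2221 in the NesKO and 1756 and 1093 in the EmxKO. With the smaller junction alone the P1 difference was 8.72 points and fell under 10.

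The nucleation genes differed little between the knockouts and their controls, except for *Cttn* at P1. *Actr2* has 8 trios, none with the cassette label, and its PSI was 99.6 or higher in every library. In *Abi1*, the coding exon of 87 nt (chromosome 2, 22805704 to 22805790) stood at a PSI of 29.6 (NesKO) and 33.4 (wild type) at E18 and of 30.4 (EmxKO) and 29.3 (labelled wild type) at P1. These lie within 4.1 points of each other, and the reads gave no call (Fisher's exact test, adjusted p = 1 at both stages). The *Abi1* exon of 15 nt (chromosome 2, 22818734 to 22818748) was at 91.4, 93.8, 95.3 and 95.5 in the same order. An exon of 101 nt labelled constitutive was listed in its most-read trio at 82.6 and 83.0 at E18 and at 99.9 in both P1 libraries. In that trio 1, 0, 0 and 0 reads skipped it. In its other trio it was listed at 95.7, 91.5, 99.5 and 99.0, with 3, 7, 2 and 3 skipping reads.

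In *Cttn*, exon 11 of 18 (111 nt, 37 codons, chromosome 7, 151636883 to 151636993) stood at a PSI of 63.7 (NesKO) and 68.0 (wild type) at E18 and of 33.1 (EmxKO) and 22.6 (labelled wild type) at P1. Inclusion was lower in both P1 libraries than in both E18 libraries. Junction-read PSI was 60.2 (56.7 to 63.7) against 64.0 (60.7 to 67.2) at E18, where the intervals overlap and no difference was detected (Fisher's exact test, adjusted p = 1). At P1 it was 33.0 (30.1 to 36.1) against 22.7 (20.04 to 25.5), and the reads differed (adjusted p = 3.76e-04, Fisher's exact test). The knockout effects at P1 and E18 differed by 0.68 in log odds (SE 0.148, adjusted p = 0.00653, Wald test). With the smaller inclusion junction alone, the P1 rise was 9.24 points and the adjusted p of that Wald test 0.127, so both calls rest on the use of both junctions. Cortactin is known for a row of repeats that bind filamentous actin. The transcript has 5 exons of 111 nt between exons 6 and 11, and the bases of exon 11 are 27.0% identical to exon 6, and 64.0%, 60.4% and 63.1% identical to exons 8, 9 and 10. The other 4 were included at a PSI of 97.8 or higher in all libraries.

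**Figure D2:**
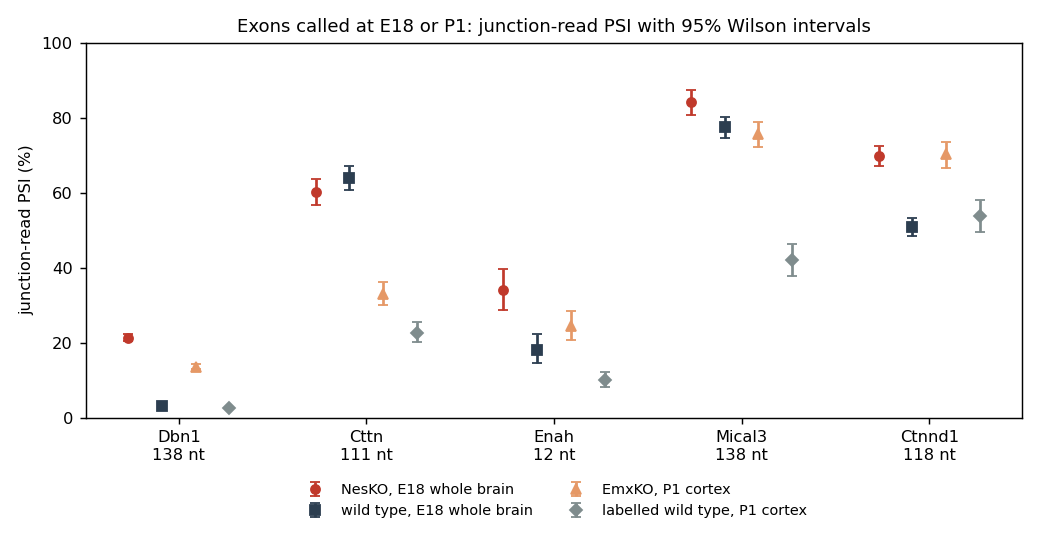
Junction-read PSI in percent of the 5 exons whose most-read trio was called at E18 or P1, in each library, with bars for the 95% Wilson interval, which covers counting error only. In *Dbn1*, *Enah*, *Ctnnd1* and *Mical3* both knockout libraries lie above their control with intervals apart, whereas in *Cttn* the E18 intervals overlap. The E18 difference in *Mical3* was not called.

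Of the Ena/VASP genes, *Enah* differed between knockout and control at an exon of 4 codons, and *Evl* had no call between them but a large one between the control libraries. The *Enah* exon of 12 nt (chromosome 1, 183861305 to 183861316, minus strand) stood at a PSI of 48.2 (NesKO) and 28.5 (wild type) at E18 and of 36.7 (EmxKO) and 16.4 (labelled wild type) at P1. Each knockout was above its own control. Junction-read PSI was 33.9 (28.7 to 39.5) against 18.0 (14.5 to 22.2) at E18 and 24.4 (20.8 to 28.4) against 9.97 (8.20 to 12.1) at P1. The reads differed at both stages (Fisher's exact test, adjusted p = 0.00178 and 1.94e-09), and the difference between the stages was not detected (Wald adjusted p = 1). The inclusion reads are one-sided: 1 junction had 179, 127, 222 and 169 reads and the other 19, 11, 19 and 14. With the smaller junction alone the rises were 5.58 and 3.17 points, and neither was called.

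Other *Enah* exons were low or did not give a call against genotype. Mena is known in tumour biology for short alternative exons, an INV exon of 19 codons and an 11a exon of 21 codons, and exons of 57 and 63 nt were measured here. The exon of 57 nt (chromosome 1, 183865791 to 183865847) was at 14.4, 12.4, 14.1 and 10.3 in NesKO and wild type at E18 and in EmxKO and labelled wild type at P1, in this order. The exon of 63 nt (chromosome 1, 183841728 to 183841790) was at 11.2, 18.4, 7.7 and 6.6. Neither passed the test against genotype (Fisher's exact test, adjusted p = 1 for both exons at both stages). An *Enah* exon of 305 nt labelled constitutive was listed at 99.9 in the NesKO and 65.8 in the E18 wild type, and at 88.7 and 87.1 at P1, with no skipping read in any library. Its difference of 34.1 points thus comes from coverage, and the junctions gave 100% in each library. In its other trio, with the same junction reads, this exon was listed at 25.1, 20.1, 99.9 and 99.9 in the same order. The E18 difference was 5 points there. The constitutive exon of 111 nt, at 82.9, 96.7, 99.9 and 99.7, was the only member that differed by 10 points downward, with 2 and 3 skipping reads at E18 (adjusted p = 1, Fisher's exact test).

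The *Evl* exon of 63 nt (21 codons, chromosome 12, 109921558 to 109921620, plus strand) stood at a PSI of 12.0 (NesKO) and 10 (wild type) at E18 and of 42.3 (EmxKO) and 45.5 (labelled wild type) at P1. The P1 libraries were high and the E18 libraries low, whatever the genotype. Its reads did not pass the test against genotype (Fisher's exact test, adjusted p = 1 at E18 and 0.922 at P1), and junction-read PSI differed by 1.48 and -3.08 points. It has the length of the 63-nt *Enah* exon, but only 16 of their 63 bases are identical (25.4%). *Evl* also has a constitutive exon of 230 nt listed at 74.7 and 71.8 at E18 and 99.9 in both P1 libraries, with at most 2 skipping reads in any library.

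In *Mical3*, exon 22 of 32 (138 nt, 46 codons, chromosome 6, 120919373 to 120919510) stood at a PSI of 87.7 (NesKO) and 80.5 (wild type) at E18 and of 76.0 (EmxKO) and 42.8 (labelled wild type) at P1. The last library was low and the other 3 were high. Junction-read PSI was 84.3 (80.6 to 87.3) against 77.5 (74.7 to 80.1) at E18 and 75.7 (72.2 to 78.9) against 42.0 (37.8 to 46.4) at P1. The P1 reads differed (Fisher's exact test, adjusted p = 8.98e-28) and the E18 reads did not pass (adjusted p = 0.707, the same exact test). The effect at P1 was larger than at E18 by 1.02 in log odds (SE 0.199, adjusted p = 7.03e-04, Wald test). This rests on the 1 control library whose *Ptbp2* label is in doubt. From these data the paper describes a *Mical3* exon as fully included at E18 with or without PTBP2. For P1 cortex it reports that PTBP2 partly represses that exon. A constitutive *Mical3* exon of 208 nt was at 86.6, 91.5, 99.9 and 99.9.

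*Sorbs2* was the gene with the most members and the thinnest reads, with a median of 89 junction reads per trio in the NesKO. Its exon of 159 nt (53 codons, chromosome 8, 46868156 to 46868314) is the middle of 3 trios. In the trio with the most reads it was at 89.1, 87.0, 95.5 and 84.5 in NesKO and wild type at E18 and in EmxKO and labelled wild type at P1, in this order, with no call. In another trio it was at 96.4, 68.3, 82.6 and 65.0, and this trio was called at E18 (difference of 28.1 points, Fisher's exact test, adjusted p = 0.0459). The skipping reads of that trio were 1, 14, 15 and 51, and its downstream junction had 0, 6, 1 and 10 reads against 81, 46, 148 and 230 on the other side. The exon of 57 nt (chromosome 8, 46870623 to 46870679) was, in its most-read trio, at 99.9 against 59.8 at E18, on 34 and 26 reads. At P1 it was at 99.3 against 88.4, and it was not called (Fisher's exact test, adjusted p = 1 at both stages). Another cassette-labelled trio of this exon was at 57.8 against 30.4 and 46.7 against 36.0, also without a call. Its skipping reads were 1, 14, 16 and 53. A trio labelled constitutive was at 99.9, 99.9, 99.3 and 99.5. The untranslated exon of 139 nt was at 45.4, 42.3, 99.9 and 88.8, with no more than 5 skipping reads. Its inclusion reads were all on the same side, with 28, 26, 139 and 114 on that junction and 0 on the other. The other 5 exons with intermediate inclusion, of 45, 50, 67, 84 and 1581 nt, differed by 0 to 4.2 points at P1. At E18, 4 of them were tested and differed by 0.8 to 7.6 points, while the 84-nt exon had too few reads.

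*Ctnnd1* differed at an untranslated exon. The second exon (118 nt, exon 2 of 20, chromosome 2, 84466177 to 84466294, minus strand) lies in the UTR and stood at a PSI of 73.6 (NesKO) and 56.8 (wild type) at E18 and of 72.7 (EmxKO) and 55.8 (labelled wild type) at P1. The knockout values were alike and the control values were alike. Junction-read PSI was 69.8 (67.2 to 72.4) against 50.9 (48.4 to 53.4) at E18 and 70.2 (66.7 to 73.5) against 53.8 (49.5 to 58.0) at P1. The reads differed at both stages (Fisher's exact test, adjusted p = 4.54e-20 and 4.18e-06), and the effects at both stages could not be told apart (difference of -0.10 in log odds, SE 0.145, Wald adjusted p = 1). The median over its 2 trios, the other of which has no skipping read, gave 8.4 points at E18. Of the coding exons, the alternatively spliced exon of 18 nt that is known as exon C of p120-catenin (chromosome 2, 84452689 to 84452706) was at 92.2, 86.0, 97.9 and 92.1. Its reads differed at P1 (Fisher's exact test, adjusted p = 1.82e-04), but by 5.8 points, below 10. By junction reads the difference was 9.15 points at P1, and with the smaller inclusion junction it was 20.8 points and called. At E18 the smaller junction gave 21.3 points without a call. The exon of 63 nt (chromosome 2, 84445341 to 84445403) was at 53.4, 56.0, 60.7 and 67.9 and did not pass at either stage (adjusted p = 1 and 0.0904, Fisher's exact test). The partly coding exon of 289 nt was at 84.5, 88.5, 98.8 and 99.4.

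**Figure D3:**
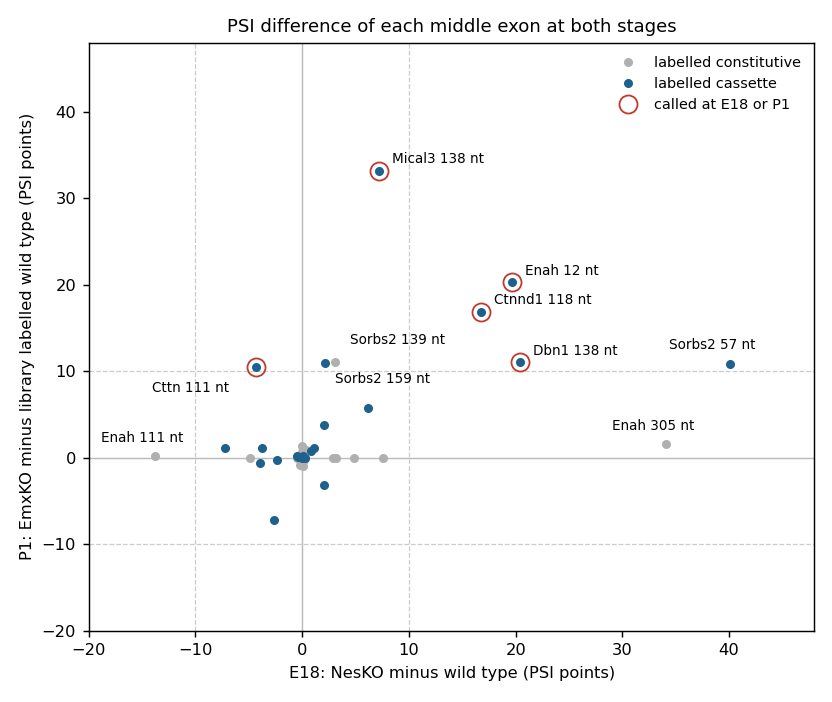
PSI difference in points of each of the 150 middle exons tested at both stages, with the E18 difference on the horizontal axis, the P1 difference on the vertical axis, and dashed lines at 10 points. Circled exons were called at E18 or P1: *Dbn1*, *Enah* 12 nt and *Ctnnd1* 118 nt lie past 10 points on both axes, and *Mical3* and *Cttn* on the P1 axis. *Enah* 305 nt and *Sorbs2* 57 nt lie far to the right without a call.

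Of the 151 middle exons tested, 26 are described above and 125 lay at the ends of the scale, 123 of them at a PSI of 95 or more in every library and 2 listed at 5 or less. Of these 2, an *Evl* exon of 136 nt had 81 to 139 skipping reads per library. The other, a *Sorbs2* exon of 93 nt, is listed at a PSI of 0 in all 4 libraries, although no read skipped it and each of its inclusion junctions had 24 to 179 reads. Between the control libraries, 20 of 222 member trios differed by 10 points (9.01%, against 4.28% of all trios), and 6 were called (2.70%, against 0.952%). The exons of 63 nt of *Evl* (+35.5 points from E18 to P1) and *Ctnnd1* (+11.9) were higher at P1, and those of *Cttn* (-45.4), *Mical3* (-37.7), *Enah* 12 nt (-12.1) and *Enah* 63 nt (-11.8) were lower (Fisher's exact test, adjusted p from 1.66e-176 to 0.0103). By junction reads alone the differences of the *Enah* exons of 12 and 63 nt were -8.05 and -8.80 points, less than 10 in size. These differences share their control libraries with the knockout comparisons and join whole brain with cortex. Side by side for the exons called at P1, EmxKO minus control was +33.2 in *Mical3*, +10.5 in *Cttn*, +20.3 in *Enah*, +16.9 in *Ctnnd1* 118 nt and +11.1 in *Dbn1*, and the controls differed by -1.0 in *Ctnnd1* 118 nt and by -0.5 in *Dbn1*.

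Junction reads per gene describe the depth behind these values and are compared only within a gene. *Actr2* had 145.0, 240.8, 162.8 and 240.4 RPM in NesKO and wild type at E18 and in EmxKO and labelled wild type at P1, in this order. Both knockout libraries were lower than their control, by a ratio of 0.602 and 0.678. At E18 it was the only one of the 9 genes at least 1.5-fold lower (2.76% of 6838 genes with 1000 reads in both libraries were). At P1, *Abi1* (47.1 against 111.9 RPM) and *Sorbs2* (67.8 against 105.1) were at least 1.5-fold lower, where 14.7% of 7852 genes were. *Enah* had 111.8 against 159.5 at E18 and 101.5 against 144.6 at P1. *Dbn1* had 1718.8, 1624.7, 1481.6 and 1252.4, so its exon differed at a similar total. No test was made, and fewer cells of a type and less RNA per cell cannot be told apart in whole tissue.

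**Figure D4:**
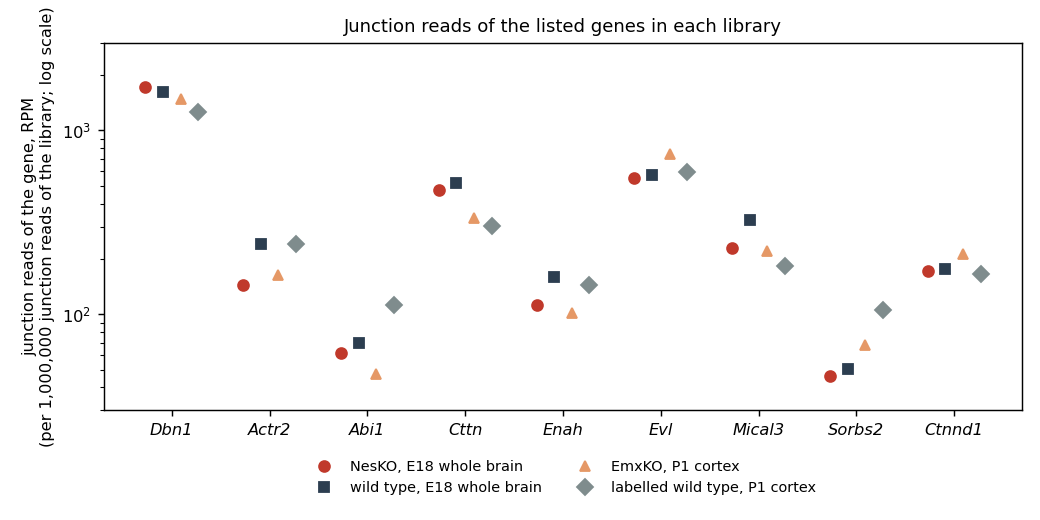
Junction reads of each gene in RPM, on a log scale, with 1 symbol per library. Values are comparable within a gene only, since longer transcripts have more junctions, and *Actr2*, *Enah*, *Abi1* and *Sorbs2* are lower in both knockout libraries than in their controls.

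Actin and spine genes beyond the 9 give the setting. In 118 other genes, 4 exons rose and 2 fell of 1796 tested at E18, and 6 rose and 2 fell of 1817 at P1. Calls among all middle exons were 0.132% and 0.181%. The median difference was 0 in these genes and in all exons. None of the 62 exons of Arp2/3 subunits was called at either stage, nor any in the groups of cofilin and turnover genes and of crosslinking and side-binding genes. In the group of WAVE and WASP genes, 2 exons fell at each stage, of 150 tested at E18 and 151 at P1, and none rose. In *Abi2*, paralog of *Abi1*, an exon of 147 nt was at a PSI of 25.1 against 74.5 at E18 and 42.4 against 71.9 at P1. In *Nckap1*, another WAVE subunit, an exon of 18 nt was at 21.9 against 49.4 and 24.0 against 40.7. In *Fmnl1*, a formin, an exon of 99 nt rose to 93.9 from 64.2 at E18 and to 91.3 from 47.9 at P1. *Ctnna2*, alpha-N-catenin, had an exon of 144 nt at 96.0 against 73.7 at E18 and 96.5 against 91.2 at P1, where the difference was under 10 points. *Fhod3*, also a formin, had an exon of 357 nt at 31.7 against 14.3 at P1. All these named differences had an adjusted p of 3.70e-06 or less by Fisher's exact test where called.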

How the data were processed

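PolyA+ RNA was sequenced from the 4 groups, 1 library each, as paired reads of 100 nt. Per the labels the build was mm9 and the tools were CASAVA, TopHat and Cufflinks, and the authors used SpliceTrap, which maps reads to sets of neighboring exons (versions not given in the sources used here). The deposited inclusion ratio is a fraction from SpliceTrap after its correction, used here as PSI in percent. The deposited junction reads are counts that were not normalized by the authors. A junction shared by trios often carries different counts in them (only 35.1 to 38.0% of 189586 shared junctions carry 1 count). Exon ends, cut short in the tables, were rebuilt from start and length. Genes were named by GENCODE release 21 on GRCm38, without converting coordinates, for 209930 trios. When the next chromosome was searched, 3 matched. Intron sequence and proteins were not used here.

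Trios needed 20 junction reads in both libraries, and a middle exon is represented by its most-read trio among those with at least 1 skipping read. The rounded mean of the 2 inclusion junctions was set against the skipping reads by two-sided Fisher's exact test, also in alternative-site trios, with Benjamini-Hochberg adjustment over all trios tested. The stages were compared by a Wald test of the difference of log odds ratios with 0.5 added to each count. Wilson intervals are at the 95% level, and they cover counting error only, since PCR copies are not independent molecules. edgeR needs replicates and was not run. Exons are named in the text if called, if they differed by 10 points, or if PSI lay between 5 and 95. In the other genes, the 5 largest called differences of a stage are named, apart from 1 gene that is not reported here. The members and lists were chosen with earlier results of these data known. Calculations used Python 3.11.15, numpy 2.4.6, pandas 2.3.3, scipy 1.17.1 and matplotlib 3.10.9 and were tested on simulated data.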

Additional observations from a re-analysis of the deposited data

Results flagged for a closer look

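In 2 exons the knockout effect differed between P1 and E18 by the Wald test of the log odds ratios. In *Cttn* exon 11 the difference was 0.68 (SE 0.148, adjusted p = 0.00653) and in the *Mical3* exon of 138 nt it was 1.02 (SE 0.199, adjusted p = 7.03e-04). Of 151602 trios tested at both stages 126 passed, and of 221 member trios these 2. Stage, tissue, Cre line and library protocol cannot be told apart in either, and the P1 control skips *Ptbp2* exon 4 in 31.5% of reads. From these same data the paper already reports a *Mical3* exon that depends on PTBP2 in P1 cortex but not at E18.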

How the results depend on the processing

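No paired analysis was possible because the labels give 1 library per group, and no library could be left out. The counts of called trios at P1 stayed at 4 or 5 under the 6 alternatives, and at E18 at 3 or 4 except with the smaller inclusion junction, which gave 2. In that alternative the smaller junction entered the test only, and the 10 points were still those of the SpliceTrap PSI. With the smaller junction used for the difference as well, 3 exons lost their call at P1 and 1 gained it. At E18, 1 exon lost its call in this way. The number of trios with 10 points at E18, 11 of 221, was 6 by junction reads alone, 6 with 1 trio per exon and 5 at a cutoff of 20 points. At P1, 12 of 225 became 7 by junction reads alone and 3 at 20 points. The other alternatives gave 8 to 14 at E18 and 8 to 13 at P1. The cause was not tested, beyond the fewer trios of the alternatives that use 1 trio per exon or a higher cutoff.

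Of 308 exon values under an alternative, 273 kept their call state without a reversed sign, 10 lost the call, 4 gained it and 21 reversed. Differences that fell to 0 count among the 273, such as *Enah* 305 nt at E18 (34.1 points, and 0 by junction reads). No trio that reversed was itself called in that comparison. Only the trio standing for each exon was put under these alternatives, so the called E18 trio of the *Sorbs2* exon of 159 nt was not among them. In that trio the smaller junction had 0 reads in the NesKO and 6 in the E18 wild type, against 1 and 14 skipping reads. The smaller junction alone thus gives lower inclusion in the NesKO there, opposite to the call. The calls gained were *Ctnnd1* 18 nt at P1 (20.8 points with the smaller junction) and, between the control libraries, *Sorbs2* 50 nt (10 to 12.5 points under 3 alternatives). Reversed at E18 were *Evl* 230 nt (-0.33 by junction reads and -0.39 with the smaller junction), *Enah* 57 nt (-0.11), *Ctnnd1* 63 nt (3.96) and 289 nt (2.87), and *Sorbs2* 159 nt (-3.78), all with the smaller junction. *Sorbs2* 50 nt gave -2.30 before correction and -4.17 with the smaller junction, and *Abi1* 101 nt 1.90 by the median over its trios. At P1, *Enah* 57 nt gave -0.28 with the smaller junction. Between the control libraries, an alternative chosen after seeing the data, the smaller junction reversed *Dbn1* 138 nt (0.23), *Enah* 57 nt (1.505), *Abi1* 15 nt (-7.89), *Ctnnd1* 118 nt (8.22), *Sorbs2* 45 nt (0.25), 159 nt (1.34) and 1581 nt (0.37). Junction reads alone reversed *Abi1* 87 nt (0.85), *Ctnnd1* 118 nt (2.91), *Sorbs2* 159 nt (1.18) and 139 nt (-0.92). *Sorbs2* trios had a median of 89 to 343 junction reads per library.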

Other observations

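Trios of the listed genes with alternative splice sites were named by their 2 introns only and are given as values. In *Enah*, an alternative acceptor (chromosome 1, 183851900 to 183852631 in mm9) that adds 732 nt to the exon of 111 nt stood at a PSI of 96.3 (NesKO) and 92.9 (wild type) at E18 and of 85.5 (EmxKO) and 70.4 (labelled wild type) at P1, with 29, 100, 15 and 74 reads on the junction without it. A choice of acceptors 3 nt apart in *Dbn1* was at 27.9, 28.3, 29.9 and 30.1, and those in *Abi1* were at 54.5, 53.4, 49.1 and 54.1 and in *Ctnnd1* at 90.3, 88.7, 92.3 and 90.5. In these 3 genes the 4 libraries lie close together. In *Sorbs2*, a choice of donors 3 nt apart was at 20.2 and 46.7 at E18, on 23 and 19 reads, and at 19.8 and 21.9 at P1. An acceptor that adds 30 nt to a *Sorbs2* exon was at 80.9 and 92.8 at E18, on 54 and 77 reads, and at 80.7 and 82.8 at P1. Another *Sorbs2* acceptor, of 69 nt, is listed at 0 in all 4 libraries with no read on the junction without it. Junction reads of *Ptbp1*, the paralog of *Ptbp2*, were 115.2, 87.4, 113.2 and 257.3 RPM in the same order.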
